A study of Mus musculus with 18 samples.

Results

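The genes described here encode interferon-inducible GTPases of the guanylate-binding protein (GBP) and immunity-related GTPase (IRG) families. They are the 10 genes Gbp2, Gbp3, Gbp4, Gbp7, Irgm1, Irgm2, Igtp, Iigp1, Tgtp1 and Tgtp2, found by their Entrez numbers among the 28096 genes of the count files. All 10 of 10 were present in the files. In 18 RNASeq libraries of splenic B cells, their mRNA was compared between resting cells, cells stimulated for 4 hr with F(ab)2 anti-IgM at 10 μg/mL, and cells stimulated for 4 hr with LPS at 20 μg/mL, in WT and Ubqln1-/- mice at least 8 weeks old. There were 3 libraries in each of the 6 groups. Cultures were set up in triplicate and pooled for RNA, so a library stands for pooled wells. The Ubqln1-/- mice carry a deletion of exon 2 made in ES cells, which is present in every tissue. The number of mice behind a library is not given in the sources used here, so p-values measure the spread between these libraries.

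GBPs and IRGs are cell-autonomous defence proteins. Interferon binding to its receptors activates JAK kinases and STAT factors, and these factors act at interferon-stimulated response elements (ISRE) and gamma-activated sites (GAS) in the promoters of the GTPase genes. The proteins then gather on the membranes of vacuoles that hold bacteria or protozoa, with help from the ubiquitin-like conjugation machinery of autophagy. Among the IRGs, Irgm1, Irgm2 and Igtp (also called Irgm3) act as regulators that keep the effector IRGs off the cell's own membranes, and Iigp1 (Irga6), Tgtp1 and Tgtp2 (both Irgb6) are effectors. LPS, the ligand of TLR4, is known to raise such genes partly through type I interferon, and anti-IgM crosslinks the B cell receptor.

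The members lie in clusters on GRCm38.p6. Gbp7 (chr3:142530336-142550151), Gbp3 (chr3:142560016-142573213) and Gbp2 (chr3:142620663-142638008) are neighbours on chromosome 3, and Gbp4 is on chromosome 5 (chr5:105115767-105139586). Irgm1 (chr11:48865245-48871420), Tgtp1 (chr11:48985329-48992246) and Tgtp2 (chr11:49057196-49064212) lie together on chromosome 11, with Igtp (chr11:58199556-58207592) and Irgm2 (chr11:58214977-58222783) further along it. All 10 members are annotated as protein coding, and counts were made over their exons.

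The promoters are shown because the members moved together across the libraries. RefSeq promoters of 300 bases, 250 before the start site and 50 from it, were at hand for 8 of the 10 members, with 2 start sites for Gbp3. Gbp4 and Iigp1 had none. The letters GAAA, any 2 bases and GAAA were searched as the ISRE core, and TTCNNNGAA as the GAS, on both strands with overlapping matches kept. An ISRE core lay in the promoter of all 8 members, in 8 of the 9 sequences, against 3.44% of 32851 promoters. A GAS match lay in 5 members, Gbp7, Irgm2, Igtp, Tgtp1 and Tgtp2, against 8.30% of all promoters. Both motifs were held by 0.454% of all promoters. Printed below are a promoter with the ISRE core alone from each family, Gbp2 and Irgm1, and 3 that hold both motifs. Capitals mark the matches, and each sequence runs 5′ to 3′ on the strand of the gene.
Gbp2 promoter: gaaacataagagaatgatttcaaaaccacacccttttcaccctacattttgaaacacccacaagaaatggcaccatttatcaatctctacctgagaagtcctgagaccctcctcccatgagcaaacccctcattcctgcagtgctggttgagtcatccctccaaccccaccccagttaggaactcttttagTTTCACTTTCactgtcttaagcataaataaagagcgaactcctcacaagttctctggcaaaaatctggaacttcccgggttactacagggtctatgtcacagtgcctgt
Irgm1 promoter: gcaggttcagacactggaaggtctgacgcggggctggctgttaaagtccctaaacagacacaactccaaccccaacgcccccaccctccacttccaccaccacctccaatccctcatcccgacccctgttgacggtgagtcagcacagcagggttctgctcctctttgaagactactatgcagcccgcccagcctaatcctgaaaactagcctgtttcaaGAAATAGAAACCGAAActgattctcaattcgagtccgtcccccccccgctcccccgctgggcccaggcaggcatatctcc
Gbp7 promoter: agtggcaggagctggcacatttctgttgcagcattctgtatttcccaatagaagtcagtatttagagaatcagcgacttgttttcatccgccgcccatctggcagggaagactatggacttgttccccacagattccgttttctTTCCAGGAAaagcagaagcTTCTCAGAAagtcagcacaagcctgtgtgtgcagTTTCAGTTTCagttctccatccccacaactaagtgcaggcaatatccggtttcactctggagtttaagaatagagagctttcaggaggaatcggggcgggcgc
Irgm2 promoter: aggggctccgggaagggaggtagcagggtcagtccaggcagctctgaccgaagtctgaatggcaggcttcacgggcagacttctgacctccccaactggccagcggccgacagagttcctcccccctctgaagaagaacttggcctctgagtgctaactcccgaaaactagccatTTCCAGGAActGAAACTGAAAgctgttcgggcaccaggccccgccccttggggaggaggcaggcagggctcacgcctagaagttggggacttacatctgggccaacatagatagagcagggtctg
Igtp promoter: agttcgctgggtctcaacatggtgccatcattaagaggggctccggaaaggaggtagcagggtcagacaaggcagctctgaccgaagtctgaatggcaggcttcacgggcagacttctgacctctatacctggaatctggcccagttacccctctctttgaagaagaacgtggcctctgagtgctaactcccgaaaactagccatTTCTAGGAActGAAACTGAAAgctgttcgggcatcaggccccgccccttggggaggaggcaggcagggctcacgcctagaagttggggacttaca

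These windows are chr3:142620413-142620712 (plus strand) for Gbp2, chr11:48871371-48871670 (minus strand) for Irgm1, chr3:142530086-142530385 (plus) for Gbp7, chr11:58214727-58215026 (plus) for Irgm2 and chr11:58199306-58199605 (plus) for Igtp. Counting back from the start site, the ISRE core began at position -59 in Gbp2, at -53 in Gbp7, at -64 in Irgm2 and at -34 in Igtp. Irgm1 held 2 overlapping cores, at -30 and -24, and the first start site of Gbp3 held 2, at -45 and -39. Gbp7 held 2 GAS matches, at -106 and -87.

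In 4 IRG genes the GAS match stood at the same distance from the ISRE core, with the core starting 11 bases after the start of the GAS. That spacing was found in 5 of the 32851 promoters (0.0152%), those of Irgm2, Igtp, Tgtp1 and Tgtp2 and that of another IRG gene, Gm12185. The spacing was read off the 4 member promoters before it was counted, so this share is no independent measure of its rarity. The stretch of 29 bases that ends with the core is shown for the 4 members, with the motif matches in capitals, because it was nearly the same in all of them.
Irgm2 element: ctagccatTTCCAGGAActGAAACTGAAA
Igtp element: ctagccatTTCTAGGAActGAAACTGAAA
Tgtp1 element: ctagccatTTCCAGGAAtcGAAACTGAAA
Tgtp2 element: ctagccatTTCCAGGAAtcGAAACCGAAA

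Against Irgm2, the stretch differed at 1 letter in Igtp, at 2 in Tgtp1 and at 3 in Tgtp2. It lies at chr11:58214894-58214922 in Irgm2, chr11:58199503-58199531 in Igtp, chr11:48992314-48992342 in Tgtp1 and chr11:49064273-49064301 in Tgtp2. The Irgm2 and Igtp promoters printed above are also alike on both sides of the stretch. The Tgtp1 and Tgtp2 promoters had 51.7% of 292 letters the same at a shift of 8 bases, with no gaps allowed. The stretch starts at position -96 in Tgtp1 and -89 in Tgtp2, so it is out of register at that shift. That share therefore does not measure how alike the stretch or its flanks are in these 2 genes. Whether the stretch is more alike than its flanks was not tested. A match to these letters is a description of the sequence and was not tested as a binding site.

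**Figure D1:**
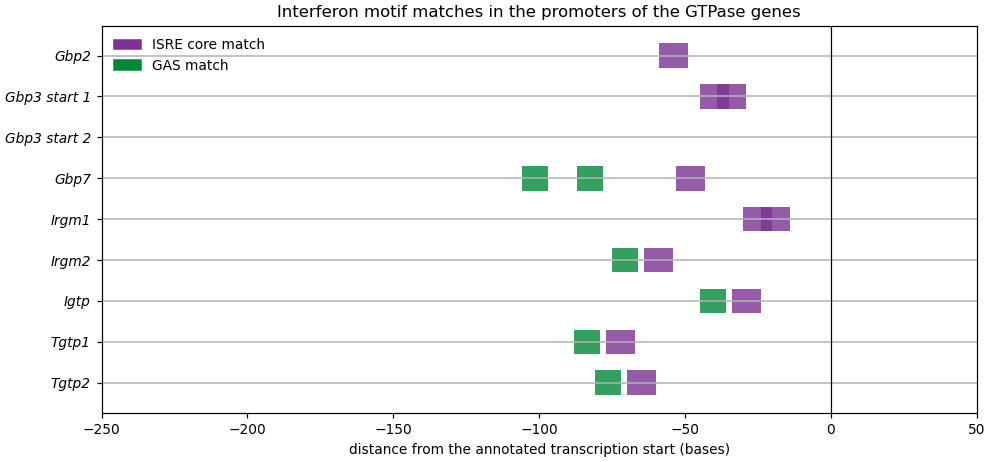
ISRE core (purple) and GAS (green) matches along the RefSeq promoters of 8 members, drawn by distance in bases from the annotated transcription start at 0. All matches lie between -106 and -15, and the pairs of adjacent blocks in Irgm2, Igtp, Tgtp1 and Tgtp2 share their spacing.

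Sequence similarity limits which members can be told apart by 50-base reads. Of all 50-base words in the annotated transcripts of Tgtp1, 81.2% also occur in another gene, and for Tgtp2 the share is 86.6%, nearly all of them words these 2 genes share. Their separate counts are therefore uncertain. The share was 12.7% for Gbp7 (mostly with the pseudogene Gm43802), 11.8% for Igtp and 7.83% for Irgm2 (mostly with each other), 7.78% for Gbp4, and from 0.379% to 3.75% for the other 4 members. The GENCODE genes Irgm2 and Igtp, Gbp4 and Gbp8 or Gbp9, and Tgtp1 and Gm12185 overlap on the same strand. The library kit does not mark strand. On the opposite strand, Olfr56 overlaps Tgtp1 (8846 bases) and Tgtp2 (7013 bases), and Mir6381 overlaps Gbp2 (87 bases). These are overlaps of whole genes, introns included.

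Facts of the whole series that touch these genes are brief. Total counts per library ranged from 15368941 to 41072854, and every WT LPS library (28590363 to 41072854) was larger than every Ubqln1-/- LPS library (17224952 to 27515442). Ubqln1 itself was at 62.3 to 92.0 RPKM (counts per kilobase of gene, scaled to the size of the library) in the 9 WT libraries and at 24.8 to 34.8 RPKM in the 9 Ubqln1-/- libraries, without overlap. Reads from outside the deleted exon are still counted. Of the B cell markers, Cd79b ranged over 1726 to 1966 RPKM in resting cells of both genotypes, 600.4 to 760.9 with anti-IgM and 974.7 to 1345 with LPS, and Ms4a1 over 345.3 to 478.4, 146.8 to 197.6 and 304 to 447.9 RPKM. Of the other cells that spleen could supply, the 9 macrophage and monocyte markers summed to 11.6 to 17.3 RPKM in resting libraries, 6.78 to 10.3 with anti-IgM and 4.64 to 7.41 with LPS. The 6 T cell markers found in the files stayed at or under 0.771 RPKM in sum, the 5 NK markers at or under 2.55 RPKM, the 4 neutrophil markers at or under 2.17 RPKM and the 3 erythroid markers at or under 4.9 RPKM. The 5 dendritic cell markers, led by Flt3, summed to 2.66 to 4.86 RPKM at rest and 4.88 to 8.33 with LPS. Of these markers only Flt3 was called higher with LPS, in each genotype, and Itgax was called lower in Ubqln1-/- cells. In bulk libraries, fewer cells of a type and less RNA per cell cannot be told apart. The 3 plasma cell markers, led by Jchain, summed to 102.7 to 205.8 RPKM in resting WT and 75.4 to 88.4 RPKM in resting Ubqln1-/- libraries.

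Of the 10 members, 8 passed the filter on low counts and were tested among 14161 genes with edgeR. Iigp1 and Tgtp1 did not pass. Iigp1 had 0 to 12 counts per library, with 3, 4 and 24 counts summed over the 3 WT libraries at rest, with anti-IgM and with LPS, and 8, 7 and 19 in Ubqln1-/- cells. Tgtp1 had 14, 6 and 54 counts in the same WT groups and 12, 3 and 22 in the Ubqln1-/- groups. For Tgtp1 these counts do not show a low level, because most of its sequence is shared with Tgtp2 and how such reads were counted is not given in the sources used here. No fold change is given for either gene.

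Per length, Gbp3 and Irgm1 were the members with the highest levels. In resting WT cells the order by mean RPKM was Gbp3 (34.4 ± 3.83, SD, n = 3), Irgm1 (27.6 ± 0.990), Gbp2 (13.2 ± 1.91), Igtp (9.80 ± 0.117), Gbp4 (7.39 ± 1.07), Irgm2 (5.49 ± 0.817), Gbp7 (3.35 ± 0.577) and Tgtp2 (0.715 ± 0.198). The place of Tgtp2 is uncertain, since reads shared with Tgtp1 may not have been counted for it. The ranges of neighbours in that order did not overlap at any step, the closest being Gbp4 (6.52 to 8.58 RPKM) and Irgm2 (4.58 to 6.15 RPKM). With LPS, Irgm1 stood first in WT cells (60.6 ± 13.8 RPKM) with Gbp3 next (44.2 ± 2.96), and the libraries of these 2 genes overlapped. In Ubqln1-/- cells with LPS the order was turned, with Gbp3 at 53.1 ± 4.95 and Irgm1 at 41.7 ± 9.44 RPKM, again with overlap. Summed over the 10 members, the level was 102 ± 5.71 RPKM in resting WT cells, 37.7 ± 5.56 with anti-IgM and 181.3 ± 30.1 with LPS. The sums in Ubqln1-/- cells were 116.7 ± 13.8, 44.1 ± 4.35 and 166.5 ± 22.1 RPKM.

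**Figure D2:**
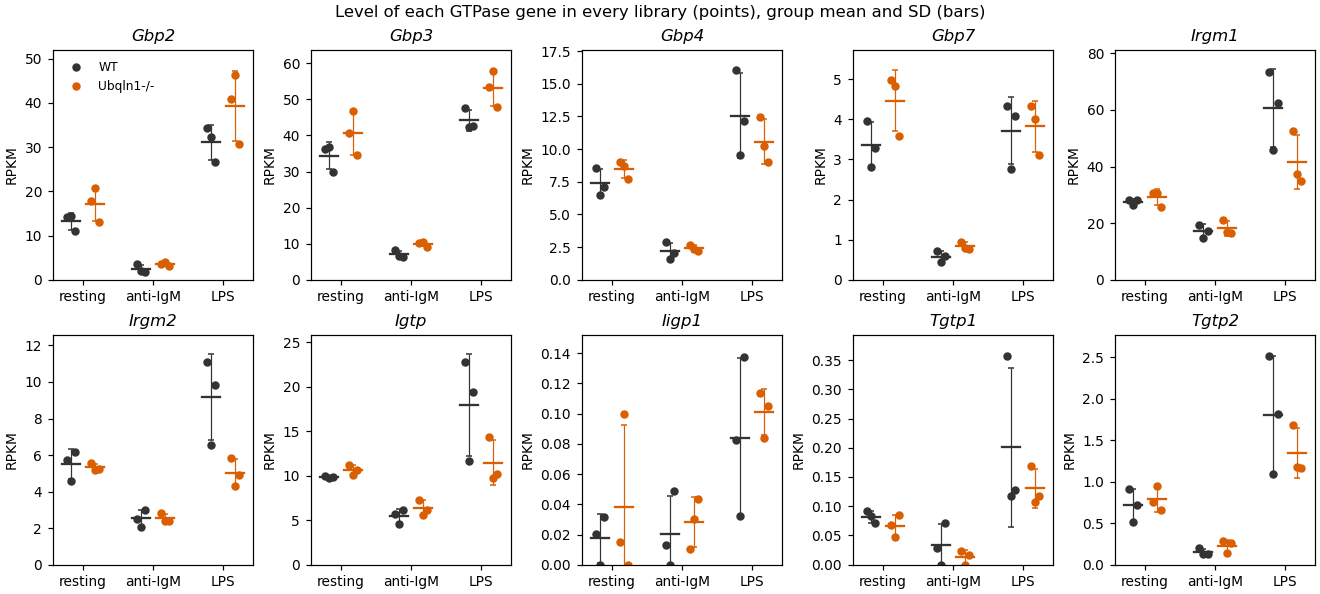
Level in RPKM (linear axis from 0) of each of the 10 genes in all 18 libraries, by condition, with WT in dark grey and Ubqln1-/- in orange. Points are libraries, horizontal bars group means and whiskers SD (n = 3). The 8 tested genes are lowest with anti-IgM in both genotypes, and Iigp1 and Tgtp1 stay at or under 0.356 RPKM.

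In WT cells the mRNA of this family moved in opposite directions with the B cell stimuli, down with anti-IgM and, for most members, up with LPS. All 8 of 8 tested members fell with anti-IgM, and 7 of 8 rose with LPS (edgeR, adjusted p under 0.05). These shares are set against a large background, since 4 hr of stimulation moved most genes. Among all 14161 tested genes, 32.2% were called lower with anti-IgM and 31.2% higher with LPS. The median log2 fold change of the 8 members was -1.96 with anti-IgM and 0.82 with LPS, and that of all tested genes was -0.01 in both. The scaling between libraries centres the bulk of the genes, so the median of all genes is set by it. All changes are relative to the rest of the library, and RNA per cell was not measured. The B cell markers Cd79a, Cd79b, Ms4a1 and Pax5 also fell with anti-IgM, Cd79b from 1825 ± 86.6 to 654.1 ± 92.5 RPKM, and the summed macrophage markers were lower with both stimuli. Their part in the changes was not tested.

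By value, Gbp7, Gbp2 and Gbp3 had the largest falls with anti-IgM. GBPs are large GTPases that assemble as coats on microbial membranes. Gbp2 was at 14.1, 14.5 and 11.04 RPKM in the 3 resting WT libraries, at 3.49, 2.05 and 1.82 with anti-IgM and at 34.4, 32.3 and 26.7 with LPS. The 3 conditions did not overlap, with anti-IgM lowest and LPS highest. The log2 fold change of Gbp2 was -2.42 ± 0.23 (SE, adjusted p = 1.17e-07, edgeR) with anti-IgM and 1.23 ± 0.20 (adjusted p = 5.28e-05) with LPS, or 2.35-fold higher.

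Gbp3 was at 36.3, 36.9 and 30.0 RPKM at rest, at 8.27, 6.53 and 6.37 with anti-IgM and at 47.6, 42.4 and 42.6 with LPS in WT cells. Again the conditions did not overlap, but the LPS libraries stood only a little above the resting ones. The log2 fold changes were -2.28 ± 0.13 (adjusted p = 4.39e-10, edgeR) and 0.36 ± 0.11 (adjusted p = 0.0116). Without WT resting replicate 3, the lowest resting library, the rise was 0.27 on the log2 scale and no longer passed the test (adjusted p = 0.0701, edgeR).

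Gbp4 was at 8.58, 6.52 and 7.07 RPKM at rest, at 2.91, 1.59 and 2.04 with anti-IgM and at 16.0, 9.52 and 12.2 with LPS. WT LPS replicate 2 was the lowest of the LPS libraries and still lay above every resting library. The log2 fold changes were -1.76 ± 0.21 (adjusted p = 1.48e-06, edgeR) and 0.77 ± 0.19 (adjusted p = 0.00232).

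Gbp7, known for a part in oxidative killing of bacteria in macrophages, fell with anti-IgM like the others and did not pass the test with LPS. It was at 3.95, 2.80 and 3.29 RPKM at rest, at 0.719, 0.437 and 0.584 with anti-IgM and at 4.32, 2.77 and 4.07 with LPS. Resting and LPS libraries overlapped. The log2 fold change was -2.52 ± 0.22 (adjusted p = 4.48e-08, edgeR) with anti-IgM, and that with LPS was 0.16 with a 95% interval from -0.24 to 0.55 (adjusted p = 0.496). Whether its LPS response differs from those of the other members was not tested.

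By value, the 3 IRG regulators fell less with anti-IgM than the other members, and all 3 rose with LPS. Irgm1, the regulator with the highest level, was at 28.1, 26.4 and 28.2 RPKM in resting WT libraries, at 19.5, 14.8 and 17.4 with anti-IgM and at 73.3, 45.9 and 62.5 with LPS. The conditions did not overlap. The log2 fold changes were -0.68 ± 0.17 (adjusted p = 0.00217, edgeR) with anti-IgM and 1.14 ± 0.17 (adjusted p = 1.82e-05) with LPS.

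Irgm2 was at 5.75, 4.58 and 6.15 RPKM at rest, at 2.49, 2.09 and 3.01 with anti-IgM and at 11.1, 6.55 and 9.83 with LPS. Igtp was at 9.92, 9.69 and 9.80 RPKM at rest, at 5.70, 4.59 and 6.16 with anti-IgM and at 22.8, 11.6 and 19.4 with LPS. WT LPS replicate 2 was the lowest LPS library for both genes, as for Irgm1 and Gbp4, and remained above every resting library. Irgm2 fell by 1.12 on the log2 scale with anti-IgM (adjusted p = 4.98e-05, edgeR) and rose by 0.74 with LPS (adjusted p = 0.00143). Igtp fell by 0.84 (adjusted p = 0.00179, edgeR) and rose by 0.87 (adjusted p = 0.00105).

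Tgtp2 was the only effector IRG that passed the filter, at low counts of 37 to 41 at rest, 7 to 14 with anti-IgM and 121 to 219 with LPS in WT cells. In RPKM it was at 0.908, 0.512 and 0.725, at 0.198, 0.135 and 0.126, and at 2.51, 1.09 and 1.82. It fell by 2.17 on the log2 scale with anti-IgM (adjusted p = 0.000137, edgeR) and rose by 1.36 with LPS (adjusted p = 0.000807). Since its reads are largely shared with Tgtp1, the counts of both were also summed, and the sum fell by 2.07 with anti-IgM and rose by 1.35 with LPS on the log2 scale, both past the test.

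Set directly against each other, LPS libraries were above anti-IgM libraries for all 8 tested members in WT cells, without overlap. Of all tested genes 17.4% were called higher in that comparison, and 21.5% had groups without overlap in that direction. The log2 fold changes ranged from 1.71 (Igtp) to 3.65 (Gbp2, 12.6-fold). With the study's own thresholds, a log2 fold change beyond 2 in size and an adjusted p under 0.001, 5 of 8 members passed here, against 1.4% of all genes called higher. With anti-IgM against rest, 4 of 8 passed those thresholds (Gbp2, Gbp3, Gbp7 and Tgtp2; 2.04% of all genes were called lower), and with LPS against rest 0 of 8 passed (1.36% called higher). In Ubqln1-/- cells 5, 3 and 0 of 8 passed them in these comparisons, against 1.21%, 1.85% and 1.22% of all genes. With LPS, a log2 fold change over 1 was reached by 3 of 8 members in WT and by 1 of 8 in Ubqln1-/- cells, against 7.84% and 7.82% of all genes.

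**Figure D3:**
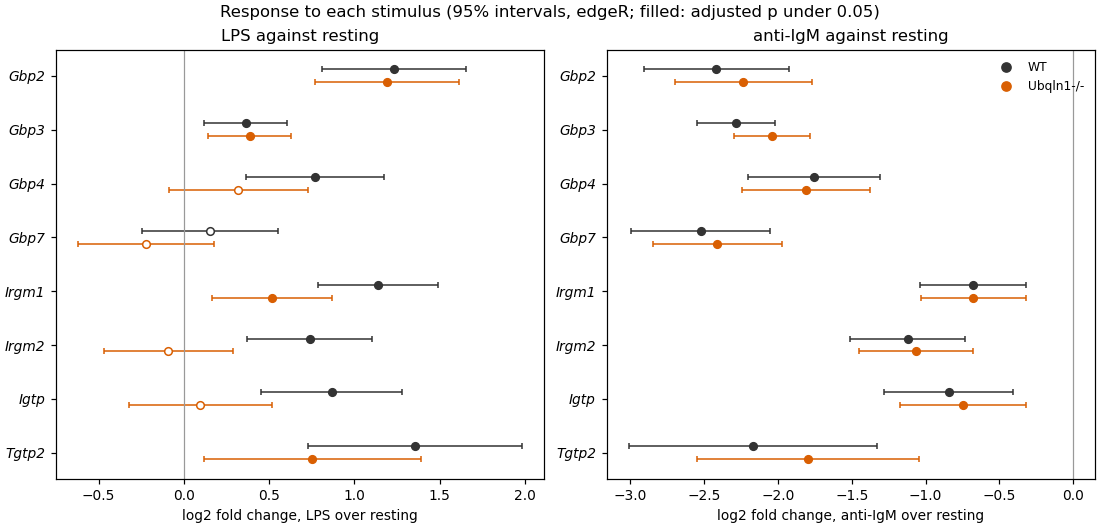
Log2 fold change of the 8 tested genes with LPS (left) and anti-IgM (right) over resting cells, in WT (dark grey) and Ubqln1-/- (orange). Whiskers are 95% intervals from edgeR and filled points have an adjusted p under 0.05. All points lie below 0 with anti-IgM, and with LPS the Ubqln1-/- points lie to the left of the WT points for every gene but Gbp3.

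In Ubqln1-/- cells the fall with anti-IgM was again seen in all 8 tested members, while 4 of 8 passed the test with LPS. With anti-IgM 32.4% of all tested genes were called lower, and with LPS 30.6% were called higher. The log2 fold changes with anti-IgM ranged from -2.41 (Gbp7) to -0.68 (Irgm1), with a median of -1.80. With LPS, Gbp2 rose by 1.19 ± 0.20 (adjusted p = 6.98e-05, edgeR) and Gbp3 by 0.39 ± 0.11 (adjusted p = 0.00789), close to their WT values. Irgm1 rose by 0.52 ± 0.17 (adjusted p = 0.0129, edgeR) and Tgtp2 by 0.75 ± 0.30 (adjusted p = 0.0391). The call for Gbp3 rested on Ubqln1-/- resting replicate 3, without which it was lost (0.28, adjusted p = 0.0514, edgeR). The call for Irgm1 was lost without that library (0.44, adjusted p = 0.0573, edgeR) or without Ubqln1-/- LPS replicate 1 (0.33, adjusted p = 0.0942). The call for Tgtp2 was lost without Ubqln1-/- resting replicate 1 (0.73, adjusted p = 0.0923, edgeR), resting replicate 3 (0.64, adjusted p = 0.123) or LPS replicate 1 (0.58, adjusted p = 0.148).

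The other 4 did not pass. Irgm2 was at 5.55, 5.16 and 5.25 RPKM in resting Ubqln1-/- libraries and at 5.85, 4.29 and 4.92 with LPS, and Igtp was at 11.2, 10.1 and 10.7 at rest and 14.4, 9.75 and 10.2 with LPS. For both genes the LPS libraries spread around the resting ones. The log2 fold change was -0.09 (95% interval -0.47 to 0.29) for Irgm2 and 0.10 (-0.32 to 0.52) for Igtp. Gbp4 had a log2 fold change of 0.32 (-0.09 to 0.73), although its LPS libraries (9.05 to 12.5 RPKM) lay above its resting ones (7.69 to 9.00 RPKM). With the replicate number as a block it passed (0.31, adjusted p = 0.0184, edgeR), which made 5 members called, against 33.3% of all genes. Gbp7 had a log2 fold change of -0.22 (-0.62 to 0.18). LPS against anti-IgM was higher in all 8 members in Ubqln1-/- cells as well, by 0.84 (Igtp) to 3.43 (Gbp2) on the log2 scale, where 16.8% of all genes were called higher.

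Between genotypes, no tested member passed the test in resting cells, with anti-IgM or with LPS in the fit without a block. At an unadjusted p under 0.05 there were 1 of 8 at rest (Gbp7), 3 with anti-IgM (Gbp2, Gbp3 and Gbp7) and 4 with LPS (Gbp3, Irgm1, Irgm2 and Igtp). The shares of all tested genes under that p were 4.22%, 5.14% and 3.93%. limma with voom called 0 in each condition, and DESeq2 called 0, 0 and 1 (Irgm2). Few genes of any kind were called, 0.0565% of all tested genes at rest, 0.0989% with anti-IgM and 0.0424% with LPS. With anti-IgM and with LPS, libraries of the same replicate number in WT and Ubqln1-/- cells deviated together from their group means. In all 3 conditions each Ubqln1-/- library correlated best with the WT library of its own number. The study describes its RNASeq as 3 independent experiments and used paired t tests for c-Myc and Ccnd2 mRNA. Which experiment a number stands for is not labelled. The fit without a block leaves out any such pairing, so a fit with the number as a block is also given. It called Irgm1, Irgm2 and Igtp with LPS (0.883% of all genes) and Gbp3 with anti-IgM (0.664%). At rest, where the 3 same-numbered pairs correlated less evenly (0.298, 0.0826 and 0.197), it called 0.346% of all genes and 0 of 8 members.

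With LPS, the 3 IRG regulators were lower in Ubqln1-/- than in WT cells within every replicate number, and passed the test with the block but not without it. The share of all genes lower within all 3 numbers was not counted, so that agreement has no background to stand against. Irgm2 was at 11.1, 6.55 and 9.83 RPKM in WT and at 5.85, 4.29 and 4.92 RPKM in Ubqln1-/- cells for replicate numbers 1, 2 and 3. Every Ubqln1-/- library lay below every WT library, and 475 of 14161 genes (3.35%) had groups separated in that direction. The log2 fold change was -0.87 ± 0.17 (95% interval -1.24 to -0.50), or 0.547 of the WT level, with an adjusted p of 0.130 (edgeR). With the replicate block it was -0.85 ± 0.11 (adjusted p = 0.00107, edgeR), and with DESeq2 -0.88 (adjusted p = 0.00184).

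Irgm1 was at 73.3, 45.9 and 62.5 RPKM in WT and at 52.5, 37.6 and 35.0 RPKM in Ubqln1-/- cells with LPS. The groups overlapped, because WT replicate 2 lay below Ubqln1-/- replicate 1, but each Ubqln1-/- library was lower than the WT library of its number. In the fit this was a log2 fold change of -0.54 ± 0.16 (adjusted p = 0.559, edgeR), and with the block -0.54 ± 0.11 (adjusted p = 0.0208). Igtp was at 22.8, 11.6 and 19.4 RPKM in WT and at 14.4, 9.75 and 10.2 RPKM in Ubqln1-/- cells. It showed the same arrangement, with overlap between groups and a lower value in Ubqln1-/- cells within all 3 numbers. As a log2 fold change this was -0.65 ± 0.19 (adjusted p = 0.513, edgeR), and with the block -0.62 ± 0.13 (adjusted p = 0.0289). Without WT LPS replicate 2, Irgm2 (-1.07, adjusted p = 0.00334, edgeR) and Igtp (-0.89, adjusted p = 0.0161) also passed without a block.

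Gbp2 and Gbp3 had the opposite sign with LPS, and neither passed the test. Gbp2 was at 40.9, 46.3 and 30.6 RPKM in Ubqln1-/- cells against 34.4, 32.3 and 26.7 in WT. It was higher within every number, a pattern that was not counted over all genes. Gbp3 was at 53.4, 57.9 and 48.0 RPKM against 47.6, 42.4 and 42.6, and every Ubqln1-/- library lay above every WT library (3.66% of all genes were separated in that direction). The log2 fold changes were 0.34 ± 0.19 for Gbp2 and 0.27 ± 0.11 for Gbp3, with adjusted p-values of 1 (edgeR) and, with the block, 0.177 and 0.141. Gbp7 stood at 0.04 (95% interval -0.35 to 0.44), Gbp4 at -0.25 (-0.65 to 0.15) and Tgtp2 at -0.43 (-1.02 to 0.16).

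**Figure D4:**
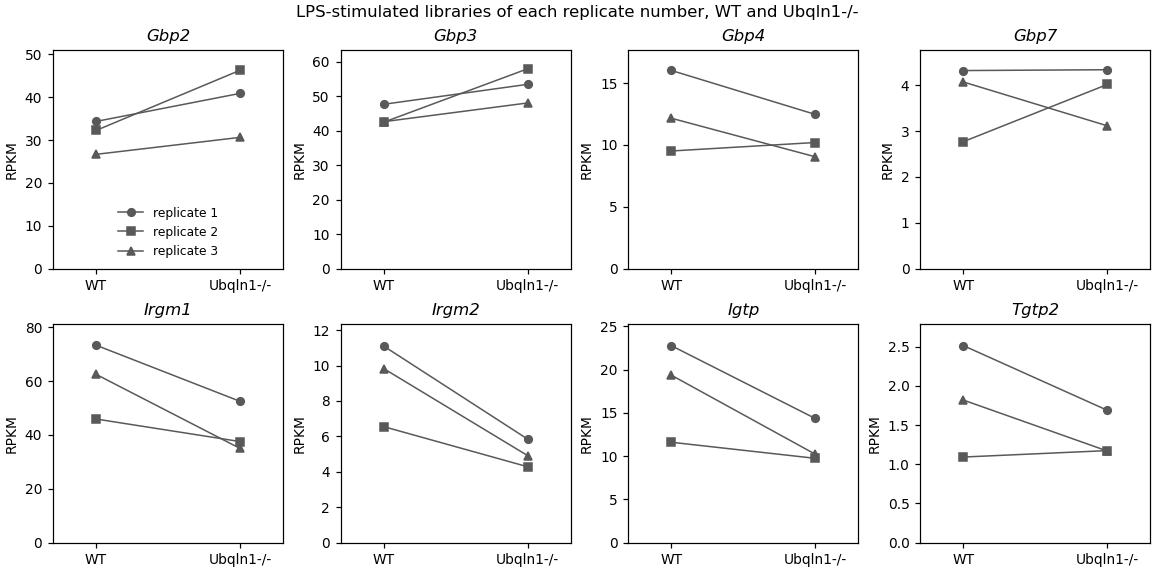
RPKM (linear axis from 0) of the 8 tested genes in the LPS libraries, with WT on the left and Ubqln1-/- on the right of each panel. Lines join libraries of the same replicate number (circle 1, square 2, triangle 3). All 3 lines fall for Irgm1, Irgm2 and Igtp and rise for Gbp2 and Gbp3.

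Depth and the markers of other cells moved with genotype in the LPS libraries as follows. The WT libraries held 28590363 to 41072854 counts and the Ubqln1-/- libraries 17224952 to 27515442. With all 18 libraries thinned at random to 15368941 counts, the log2 fold changes of Irgm1, Irgm2 and Igtp with LPS were -0.55, -0.87 and -0.68. Thinning keeps the expected share of each gene in its library, so these values had to stay near the unthinned ones. The part of depth was not tested by it. The plasma cell markers summed to 63.3 to 148.2 RPKM in WT and 41.2 to 55.0 RPKM in Ubqln1-/- libraries with LPS, the 9 macrophage markers to 4.64 to 6.10 and 5.67 to 7.41 RPKM, and the 5 dendritic cell markers to 4.88 to 8.33 and 5.63 to 6.40 RPKM. Their part in the difference was not tested.

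In resting cells and with anti-IgM no IRG regulator passed the genotype test, with or without the block. Irgm2 had a log2 fold change of -0.04 (95% interval -0.42 to 0.33) at rest and 0.01 (-0.39 to 0.41) with anti-IgM. Irgm1 stood at 0.08 (-0.27 to 0.43) and 0.08 (-0.28 to 0.44), and Igtp at 0.12 (-0.30 to 0.54) and 0.22 (-0.22 to 0.66). At rest every Ubqln1-/- library of Igtp (10.1 to 11.2 RPKM) lay above every WT library (9.69 to 9.92 RPKM), and 4.45% of all genes were separated in that direction. For Irgm2, both intervals lie above its value with LPS, which is no test of a difference between conditions. The Irgm2 difference of the LPS responses did not pass (adjusted p = 0.145 with the block, edgeR). Its genotype difference with LPS was not tested against that with anti-IgM.

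By value 7 of 8 tested members were higher in Ubqln1-/- cells at rest and 8 of 8 with anti-IgM. The 4 GBPs were among them in both conditions, but the direction was not particular to GBPs. Irgm2 was the exception at rest (-0.04). Tgtp2 did not pass, at 0.17 ± 0.32 at rest and 0.55 ± 0.45 with anti-IgM. Without WT anti-IgM replicate 2, the sign with anti-IgM changed for Gbp4 (-0.05), Irgm1 (-0.02) and Irgm2 (-0.11). Gbp3 with anti-IgM was the one that passed a test, with the block. Gbp3 was at 10.1, 10.4 and 9.16 RPKM in Ubqln1-/- cells with anti-IgM and at 8.27, 6.53 and 6.37 in WT, without overlap (6.32% of all genes were separated in that direction). The change on the log2 scale was 0.49 ± 0.13 (adjusted p = 0.264, edgeR), and with the block 0.49 ± 0.09 (adjusted p = 0.0173). Gbp7 was also separated with anti-IgM, at 0.954, 0.790 and 0.764 against 0.719, 0.437 and 0.584 RPKM, with a log2 fold change of 0.54 ± 0.24 (adjusted p = 0.906, edgeR; 0.280 with the block). Gbp2 did not pass, at 0.56 ± 0.24 with anti-IgM (0.40 without WT anti-IgM replicate 3, 0.91 without WT anti-IgM replicate 1) and 0.38 ± 0.20 at rest (0.22 without Ubqln1-/- resting replicate 2, 0.54 without Ubqln1-/- resting replicate 3).

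**Figure D5:**
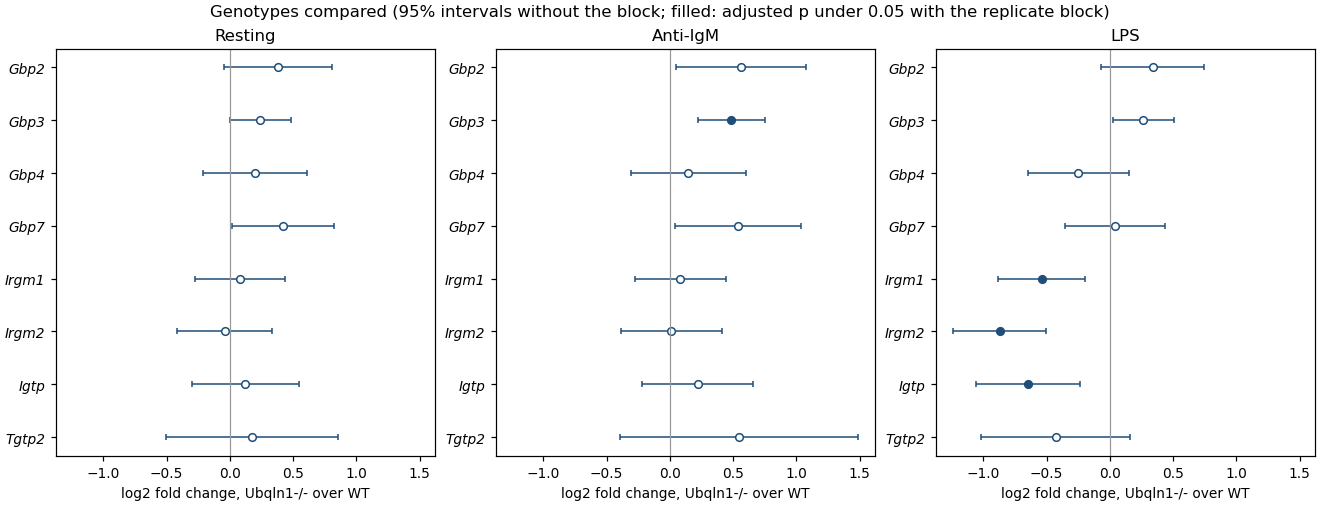
Log2 fold change of Ubqln1-/- over WT for the 8 tested genes in resting, anti-IgM and LPS libraries. Points and 95% intervals are from the edgeR fit without the block, and filled points have an adjusted p under 0.05 with the replicate block. The filled points are Gbp3 with anti-IgM and Irgm1, Irgm2 and Igtp with LPS.

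Whether the response to a stimulus itself differed between genotypes was tested as an interaction. No member and no other gene passed (0 of 14161 with each stimulus; 220 genes or 1.55% with LPS and 140 or 0.989% with anti-IgM had an unadjusted p under 0.05, and limma with voom and DESeq2 called 0). Of the members, 3 of 8 had an unadjusted p under 0.05 for LPS and 0 of 8 for anti-IgM. The LPS response was smaller in Ubqln1-/- cells by 0.83 ± 0.25 for Irgm2, by 0.77 ± 0.28 for Igtp and by 0.62 ± 0.23 for Irgm1 on the log2 scale. With the block, the adjusted p for these 3 was 0.145, 0.348 and 0.302 (edgeR). For Gbp2 and Gbp3 the differences of the LPS responses were -0.04 (95% interval -0.63 to 0.55) and 0.02 (-0.32 to 0.37). The LPS responses of these genes are therefore not shown to differ between genotypes.

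The genes around this family in the interferon pathway were described by lists of ligands, receptors, transcription factors, inhibitors and partners. Of all tested genes in WT cells, 31.2% were called higher and 30.1% lower with LPS, and 32.4% higher and 32.2% lower with anti-IgM. In Ubqln1-/- cells the shares were 30.6% and 30.2% with LPS and 32.9% and 32.4% with anti-IgM, and the counts of the lists below stand against these. Of 12 interferon genes 2 passed the filter. Ifng, the type II interferon that induces GBPs and IRGs, was at 1.31 ± 0.566 RPKM at rest in WT cells, 4.06 ± 1.13 with anti-IgM and 0.288 ± 0.261 with LPS. It rose with anti-IgM and fell with LPS in both genotypes. Ifna4, a type I interferon, was at 0.0847 ± 0.0784 RPKM at rest and 1.47 ± 0.677 with LPS in WT cells. In Ubqln1-/- cells it was at 1.03 ± 0.323 RPKM with LPS. Summed over 3 libraries, it had 98 counts in WT and 43 in Ubqln1-/- cells with LPS. It had 3 counts in resting WT cells and 0 in resting Ubqln1-/- cells and both anti-IgM groups. Ifna4 passed the filter only through the LPS libraries, so its call as higher with LPS was favoured by the filter and is no separate support. Ifnb1 had 8 counts over the 3 WT LPS libraries, 4 over the 3 Ubqln1-/- LPS libraries and 0 in all resting and anti-IgM libraries.

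Of the 9 receptor chains and kinases, 8 fell with anti-IgM in each genotype. Ifngr1 and Ifngr2, the chains of the receptor for Ifng, were at 55.3 ± 6.16 and 77.8 ± 7.82 RPKM in resting WT cells and at 26.6 ± 2.34 and 36.0 ± 3.79 with anti-IgM. Jak1, the kinase shared by both interferon receptors, was at 198.1 ± 13.3 and 107.1 ± 7.61. With LPS 1 of 9 rose (Ifnlr1) and 3 fell (Ifnar1, Il10rb and Jak1) in each genotype, the latter near the share of all genes called lower. Ifnlr1, a chain of the type III interferon receptor, was higher in Ubqln1-/- cells with the block, by 0.72 on the log2 scale with anti-IgM (adjusted p = 0.0219, edgeR) and by 0.52 with LPS (adjusted p = 0.0201). Without the block the adjusted p was 0.264 and 0.507 (edgeR).

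Of 12 tested transcription factors, 8 rose and 1 fell with LPS in WT cells, and 3 rose and 7 fell with anti-IgM. The 3 that rose are near the share of all genes called higher with anti-IgM. Irf9, a subunit of the complex that binds the ISRE, was at 28.2 ± 0.417 RPKM at rest, 17.9 ± 1.20 with anti-IgM and 54.9 ± 5.77 with LPS in WT cells. It was the single gene of these lists that differed between genotypes without a block, at 39.8 ± 3.86 RPKM in Ubqln1-/- cells with LPS, by -0.46 ± 0.08 on the log2 scale (adjusted p = 0.0439, edgeR). With the block, Stat2 (-0.42, adjusted p = 0.00743, edgeR) and Irf7 (-0.91, adjusted p = 0.0289) were lower too. Irf7 was at 30.3 ± 11.7 RPKM in WT and 15.8 ± 4.28 in Ubqln1-/- cells with LPS. Irf4 and Irf8, the factors of this list with the highest levels, rose with both stimuli.

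Among 8 feedback inhibitors, 5 rose with LPS in each genotype. Usp18, which damps the type I receptor, was at 12.5 ± 4.63 RPKM in WT and 6.83 ± 2.84 in Ubqln1-/- cells with LPS (-0.87 with the block, adjusted p = 0.0257, edgeR), and Socs3 was lower with the block as well (-0.75, adjusted p = 0.0175). Isg15, a ubiquitin-like modifier, was at 74.4 ± 20.97 and 61.9 ± 25.9 RPKM. Of the 11 autophagy partners, which help place GBPs and IRGs on vacuoles, 3 rose and 5 fell with LPS in WT cells, and 4 rose and 3 fell with anti-IgM. These WT counts are near those shares of all genes, apart from a somewhat larger number that fell with LPS. In Ubqln1-/- cells 2 rose and 7 fell with LPS, where 30.2% of all genes were called lower, and 3 rose and 4 fell with anti-IgM. Gabarap, the one with the highest level, was at 158.5 ± 11.9 RPKM at rest and 128.9 ± 7.43 with LPS. None of the 11 was called between genotypes by edgeR with or without the block.

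Of 16 other GBP and IRG genes, 12 were tested. With anti-IgM 11 of 12 fell in each genotype. With LPS in WT cells 6 rose (Gbp2b, Gbp5, Gbp6, Gm12185, Gm12250 and Gvin1) and 3 fell (9930111J21Rik1, Irgc1 and Irgq), while in Ubqln1-/- cells 2 rose (Gbp2b and Gbp5) and 4 fell. The number that fell in Ubqln1-/- cells is near the share of all genes called lower, and the number that rose is under the share called higher. Gbp5, which supports inflammasome activity, was at 11.04 ± 0.711 RPKM at rest, 3.28 ± 0.342 with anti-IgM and 24.8 ± 3.23 with LPS in WT cells, and at 23.4 ± 3.94 with LPS in Ubqln1-/- cells. Gm12250, also known as Irgb10, was at 8.06 ± 2.85 RPKM in WT and 4.30 ± 1.15 in Ubqln1-/- cells with LPS, a log2 fold change of -0.91 (adjusted p = 0.285, edgeR) and, with the block, -0.88 (adjusted p = 0.00626). Gbp5 with anti-IgM was higher in Ubqln1-/- cells with the block (0.46, adjusted p = 0.0478, edgeR).

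The members followed one another closely over the 18 libraries. Pearson correlations of log2 CPM between the 8 tested genes ran from 0.800 (Gbp7 with Irgm1) to 0.978 (Gbp2 with Gbp3) over 28 pairs, as a description, since the libraries share their stimulation. The non-members whose profile was most like the mean of the members were Trim30a (r = 0.986), Ifit2 (0.982), Vav2 (0.982), Helz2 (0.981) and Gm1966 (0.979). Trim30a and Ifit2 are interferon-stimulated genes. Trim30a was at 31.9, 14.5 and 53.3 RPKM in WT cells at rest, with anti-IgM and with LPS, and at 36.3, 16.0 and 35.8 RPKM in Ubqln1-/- cells. By rank correlation the same 5 genes stood between positions 28 and 159, so the names depend on the measure of likeness.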

How the data were processed

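RNA from splenic B cells was sequenced as single-end reads of 50 bases (TruSeq v2, HiSeq2500). Per the submitters' processing notes, GSNAP, limma, R 3.2.2 and GRCm38 were used. The counting program is not given in the sources used here. The deposited files hold raw read counts per Entrez gene, the gene width in bases and RPKM values that the authors computed from them.

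Counts were tested with the edgeR quasi-likelihood test (edgeR 4.0.16, R 4.3.3) on all 18 libraries, with filterByExpr, TMM scaling and 1 term per group. P-values were adjusted by Benjamini-Hochberg over the 14161 tested genes, and an adjusted p under 0.05 was a call. Standard errors (SE) and 95% intervals come from that fit. RPKM values in the text were recomputed from the counts, the deposited widths and the TMM-scaled library totals, and SD is over 3 libraries. Symbols came from RefSeq, which named 25035 of 28096 genes (89.1%). limma with voom (3.58.1) and DESeq2 (1.42.0) were alternatives, with other scalings, filters and thresholds, and with each replicate left out. Scripts were tested on simulated counts.

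Replicate numbers come from the labels, except that replicate 1 carries no number there. Same-numbered libraries deviated together, with correlations of 0.205 to 0.516 over the 3 pairs of every comparison except Ubqln1-/- against WT at rest (0.0826 to 0.298). There too each Ubqln1-/- library correlated best with the WT library of its own number. The block was an alternative to the main fit in every comparison. Totals of 15368941 to 41072854 counts limit the precision of low genes such as Tgtp2.

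The members and gene lists were chosen with earlier results of these data known. The genes named were the members, the 5 genes of each list with the highest mean RPKM, list genes called between genotypes and the 5 genes most like the members. Other genes named were chosen after their values were seen. Some list genes are not reported here.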

Additional observations from a re-analysis of the deposited data

How the results depend on the processing

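Of 1318 member log2 fold changes under the alternatives, 1278 kept direction and side of the threshold. The study's thresholds left 0 of 8 members called with LPS against rest in each genotype, 4 in WT and 3 in Ubqln1-/- cells with anti-IgM against rest, and 5 in each genotype for LPS against anti-IgM. A log2 fold change over 1 left 3 in WT and 1 in Ubqln1-/- cells with LPS. Between genotypes, DESeq2 called 1 with LPS, and the replicate block called 1 with anti-IgM, 3 with LPS and 0 at rest, and with Gbp4 in Ubqln1-/- cells it changed no other member's call. At rest Ifnlr1 passed with the block (0.82, adjusted p = 0.00334, edgeR). Rank correlation kept 0 of the 5 genes most like the members. Over all genes, edgeR, DESeq2 and the block called 8, 32 and 49 at rest, 14, 47 and 94 with anti-IgM, and 6, 51 and 125 with LPS, and edgeR on the groups compared alone called 5, 2 and 2. The causes were not tested.

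Leaving out each replicate in turn, members called ranged over 6 to 8 (LPS) and 8 to 9 (anti-IgM) against rest in WT cells, and 1 to 4 and 8 to 9 in Ubqln1-/- cells. They were 8 to 9 for LPS against anti-IgM in each genotype, and 0 at rest, 0 with anti-IgM and 0 to 2 with LPS between genotypes. The counts of 9, and the 8 with LPS against rest in WT cells, include Tgtp1, which passed the filter on low counts in those fits. With Tgtp1, 9 members were tested. It was not tested in the fits without WT LPS replicate 1 (31 counts) or Ubqln1-/- LPS replicate 1 (8 counts). Tgtp1 thus entered through libraries where it was high, so its calls with LPS are no support for a rise with LPS. The 1 arose without Ubqln1-/- resting replicate 3, and the 2 without WT LPS replicate 2. Some values changed sign when a library was left out. In Ubqln1-/- cells with LPS, Irgm2 ranged from -0.20 to 0.016 and Igtp from -0.086 to 0.20. Between genotypes Irgm2 ranged from -0.16 to 0.040 and Tgtp2 from -0.039 to 0.35 at rest. With anti-IgM, Gbp4 ranged from -0.048 to 0.42, Irgm1 from -0.045 to 0.18 and Irgm2 from -0.11 to 0.15. With LPS Gbp7 ranged from -0.13 to 0.17 (-0.011 with thinned libraries, an alternative chosen after seeing the data). The LPS response difference ranged from -0.21 to 0.12 for Gbp2 and from -0.082 to 0.14 for Gbp3. In Ubqln1-/- cells with LPS, Tgtp2 missed the threshold with voom (0.73, adjusted p = 0.0754, limma) and with thinned libraries (0.68, adjusted p = 0.0641, edgeR). Counts of 0 to 12 limit what can be said of Iigp1.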
